A study of Bos indicus with 5 samples.

Results

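The RAB, ARF and SAR1 small GTPases and some of their direct partners were examined in ampulla tissue of cows, which is the wide part of the oviduct near the ovary. Genes were taken by symbol: every numbered RAB gene, ARF1 to ARF6, SAR1A and SAR1B, the exchange factors RAB3IP and RABGEF1, the RAB5 partners RABEP1 and RABEP2, and the RAB11-binding RAB11FIP genes. This gave 73 of the 24616 genes in the ampulla table, made up of 57 RAB GTPases, 5 ARF GTPases, 2 SAR1 GTPases and 9 partners. Genes with the symbols ARF3 and RAB6A were not analysed here, and the RAB6 genes of the table were RAB6B and RAB6C. Whether the gene listed as RAB6C is the bovine counterpart of RAB6A was not settled, so its value is given under the listed symbol only. The gene listed as RAB7L1 is also known as RAB29.

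RAB, ARF and SAR1 proteins are molecular switches that sit on membranes when bound to GTP and recruit the coats, tethers and motors that form, move and fuse vesicles. Exchange factors (GEFs) load them with GTP and GTPase-activating proteins (GAPs) switch them off. In the oviduct epithelium this machinery serves secretory cells, which release glycoproteins into the lumen, and ciliated cells, which need vesicle delivery to build and keep their cilia.

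Multiparous Nelore (Bos indicus) cows were used, and all received hormones to synchronize the cycle, including an intravaginal progesterone device, 2 mg of estradiol benzoate and a GnRH injection that induced ovulation. In the LF/LCL group (large follicle and large corpus luteum, 2 cows) the device was removed 42 h before GnRH, and a prostaglandin injection was also given when it was inserted. In the SF/SCL group (small follicle and small corpus luteum, 3 cows) the device was removed 30 h before GnRH, without that injection. Oviduct tissue from the side of the corpus luteum was collected on day 4 after GnRH. The cows sequenced were picked from a larger number, at the extremes of their group. They were ranked by follicle diameter and estradiol on the day before GnRH, and by corpus luteum area and progesterone on day 4. The groups are therefore not random samples of the treatments.

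Abundance is given as normalized reads, which are the reads of a gene divided by a size factor for each library. The 5 libraries held from 13418278 to 19592174 reads assigned to genes. The defining markers of the labelled tissue were present. OVGP1, the oviduct glycoprotein of secretory cells, was at 117179 to 147247 normalized reads, and FOXJ1, the master regulator of motile cilia, at 8481 to 12698. The abundance of cell type markers was not the same in the libraries. Summed ciliated-cell markers were at 73936 and 93544 normalized reads in LF/LCL and at 111266, 112791 and 108638 in SF/SCL, and 0 of 17 tested markers were higher in LF/LCL (median log2 fold change -0.43). Summed smooth muscle markers were at 111521 and 56335 in LF/LCL and at 34258, 37964 and 14344 in SF/SCL, and 9 of 9 were higher in LF/LCL (median 1.47). Proliferation markers were higher in LF/LCL in 7 of 7 (median 1.35). Stromal markers had a median of 0.73 (8 of 9 higher), but their sums overlapped, at 85129 and 36215 in LF/LCL and at 39742, 23139 and 46703 in SF/SCL. Immune markers had a median of 0.64 (10 of 12 higher), and their sums overlapped too, at 2646 and 3631 in LF/LCL and at 2812, 1728 and 2774 in SF/SCL. Nerve and glia markers summed to 28569 and 36749 in LF/LCL and to 20961, 14683 and 10612 in SF/SCL, without overlap. Of the tested ones, 5 of 9 were higher and 4 lower (median 0.54), and NEFL was at 0. Most of the nerve and glia signal came from 1 marker, which averaged 21509 normalized reads. The median tested marker of this list had 133 reads in all. The separation of these sums is therefore mainly that of 1 gene. Epithelial markers had a median near 0 (0.01, 5 of 9 higher), and secretory markers a median of -0.31 (2 of 6 higher). The part of these cell types in the values below was not tested. In whole tissue, fewer cells of a type and less RNA per cell cannot be told apart.

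The question was whether abundance of the trafficking GTPases differed between LF/LCL and SF/SCL. The 73 genes together took a nearly constant share of the reads, with 0.390% and 0.406% in LF/LCL and with 0.402%, 0.395% and 0.405% in SF/SCL. Of the 73 genes, 66 had a mean above 5 normalized reads over the 5 libraries and were tested with limma within a fit of 15815 genes, on log2(normalized reads + 1). No GTPase or partner had a Benjamini-Hochberg adjusted p under 0.05 by limma (0 of 66, against 0% of all genes tested). The edgeR quasi-likelihood test (background 0%) and DESeq2 (background 2.89%) also called 0 of the 66. The smallest adjusted p was that of RAB3IP with each tool, at 0.378 with limma, 0.387 with edgeR and 0.312 with DESeq2. At an unadjusted p under 0.05, limma passed 2 of the 66 (RAB3IP and RAB7B), or 3.03%, against 11.5% of all genes tested. RAB7B was the 1 gene higher in LF/LCL, where the background was 5.64%, and RAB3IP the 1 gene lower, where it was 5.86%. The edgeR test passed 2 and DESeq2 passed 3 at that level, against 11.7% and 12.7% of all genes.

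Log2 fold changes, here always LF/LCL over SF/SCL, ran from -1.09 (RAB39B) to 0.88 (RAB17) among the 66 tested genes. Their median was 0.03, beside 0.01 for all genes tested, and 36 of the 66 were above 0, beside 50.8% of all genes. The libraries of LF/LCL and SF/SCL did not overlap for 19 of the 66 (28.8%), against 30.1% of all genes tested. Of these, 13 were higher in LF/LCL, where the background was 15%, and 6 were lower, where it was 15.1%.

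**Figure D1:**
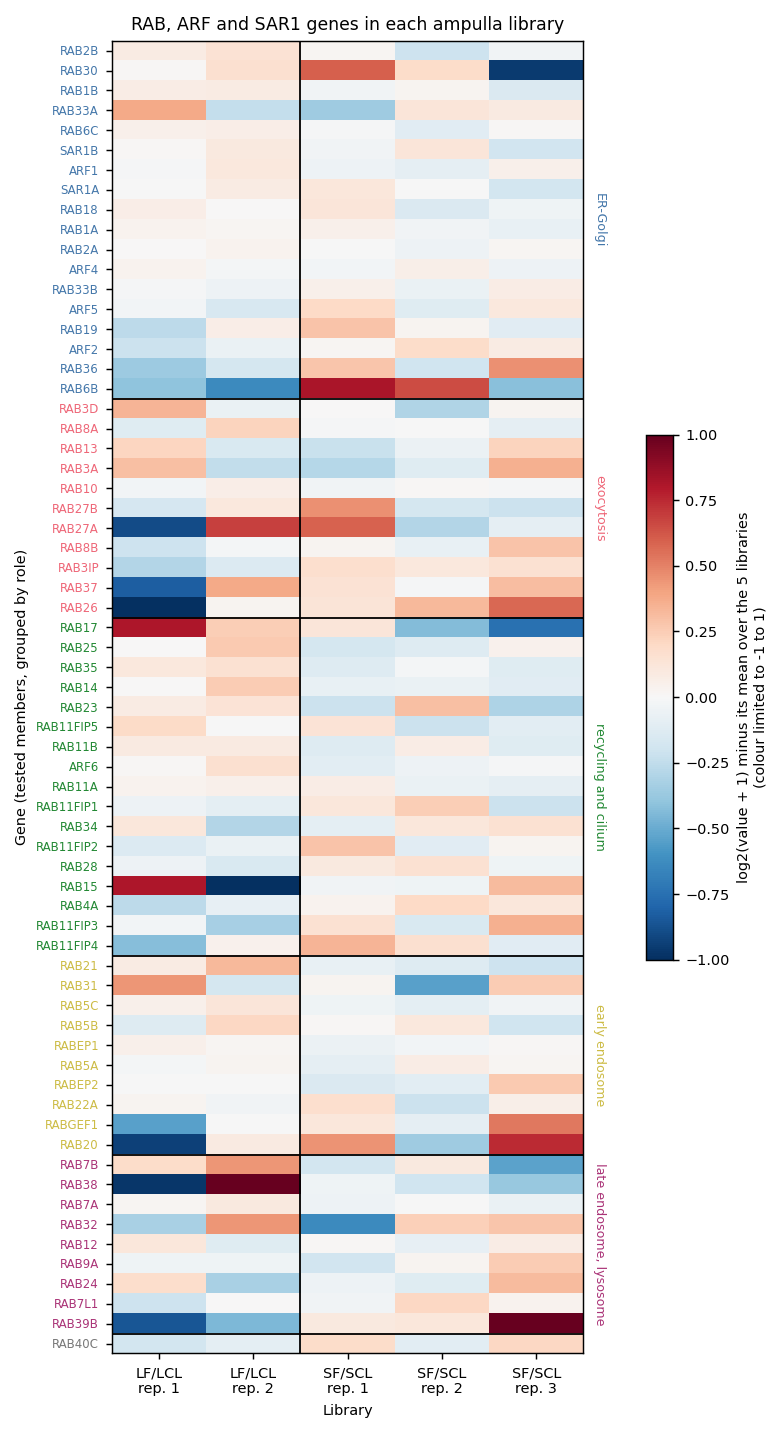
Heat map of the 66 tested RAB, ARF, SAR1 and partner genes (rows, grouped by role) in the 5 ampulla libraries (columns, with the line between LF/LCL and SF/SCL). Colour gives log2(normalized reads + 1) minus the mean of the gene over the 5 libraries, limited to between -1 and 1. Most rows are pale, and the strong colours lie in low-abundance genes such as RAB39B, RAB17, RAB38 and RAB15.

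The interval of each difference shows how large a change these libraries leave possible. For 37 of the 66 genes (56.1%) the 95% limma interval lay within a 1.5-fold change in either direction, against 36.8% of all genes tested. Only 5 of the 66 (7.58%) had a fitted change past 1.5-fold (RAB17, RAB20, RAB26, RAB39B and RAB6B), against 17.9% of all genes. The highest library was under 1.5 times the lowest for 43 of the 66 (65.2%), against 46.8% of all genes. The median spread within groups was 0.164 on the log2 scale, against 0.226 for all genes, and the median gene was counted from 3180.5 reads over the 5 libraries, against 1983 for all genes. Deeper counting goes with smaller error, and no comparison with other genes of the same read number was made.

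**Figure D2:**
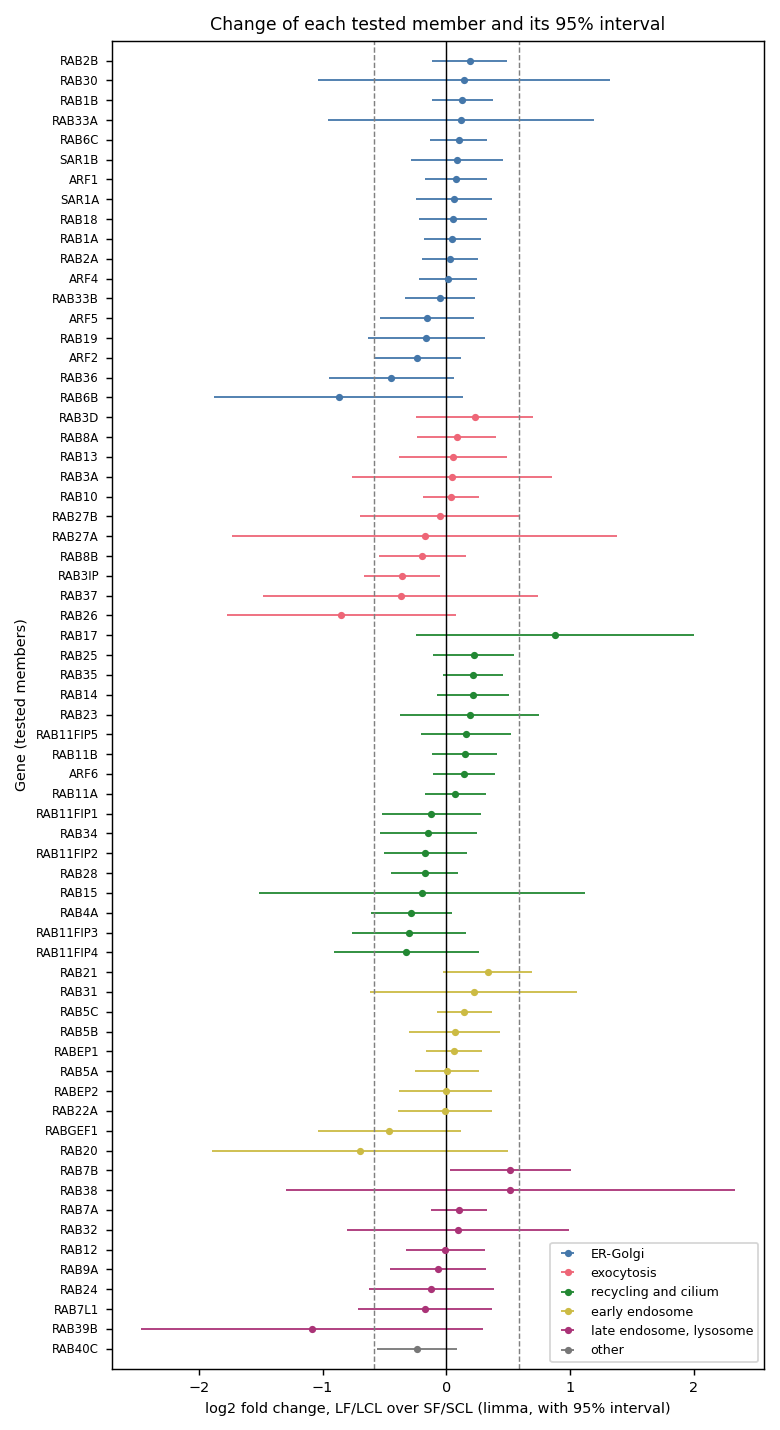
Limma log2 fold change (LF/LCL over SF/SCL, horizontal axis) of each of the 66 tested genes with its 95% interval, coloured by role. The intervals of RAB3IP (below 0) and RAB7B (above 0) do not reach 0, and the interval is narrow around 0 for genes such as RAB2A, ARF4, RAB10 and RAB5A.

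The largest group was the GTPases of the endoplasmic reticulum and Golgi, with 18 genes that were all tested. They had a median log2 fold change of 0.05, and 12 of the 18 intervals lay within 1.5-fold. ARF1, which recruits the COPI coat to Golgi membranes, was at 5302 and 5735 normalized reads in LF/LCL and at 5149, 5009 and 5529 in SF/SCL. The groups overlapped, and the log2 fold change was 0.08 ± 0.10 (SE; 95% interval -0.17 to 0.33; limma adjusted p = 0.826). SAR1A, which starts the COPII coat at exit sites of the endoplasmic reticulum, was at 862 and 913.7 in LF/LCL and at 932.6, 859.5 and 762 in SF/SCL. Its paralog SAR1B was at 374.1 and 397.8 in LF/LCL and at 362.9, 404.9 and 325.2 in SF/SCL. Both SAR1 genes overlapped between groups, with log2 fold changes of 0.06 ± 0.13 and 0.09 ± 0.15. RAB1A, needed for transport from the endoplasmic reticulum to the Golgi, was at 3975 and 3921 in LF/LCL and at 4002, 3774 and 3681 in SF/SCL, a change of 0.05 ± 0.10 with an interval of -0.18 to 0.28.

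RAB2B, a Golgi GTPase, was at 604 and 630.1 in LF/LCL and at 578.1, 494.3 and 555.9 in SF/SCL. Both LF/LCL libraries were above the 3 SF/SCL libraries, with a log2 fold change of 0.19 ± 0.13 and an adjusted p of 0.618 by limma. RAB1B and RAB6C were the other genes of this group without overlap and higher in LF/LCL, at 0.13 ± 0.10 and 0.10 ± 0.10. ARF2 was the gene without overlap in the other direction, at 285 and 314.6 in LF/LCL and at 334.8, 374.6 and 349.9 in SF/SCL (-0.24 ± 0.14, limma adjusted p = 0.584). Of the 5 ARF genes, 3 were above 0 and 2 below, with a median of 0.01. The remaining genes of this group all overlapped between LF/LCL and SF/SCL. RAB2A, ARF4, RAB18, RAB33B and ARF5 had log2 fold changes of 0.03, 0.01, 0.06, -0.05 and -0.15, each with an interval within 1.5-fold. RAB30, RAB33A and RAB19 had 0.15, 0.12 and -0.16 with wider intervals.

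The 2 Golgi-group genes with the smallest p below 0 overlapped between groups. RAB6B, a RAB6 isoform best known from neurons, was at 88 and 74.5 normalized reads in LF/LCL and at 205.9, 184.2 and 86.9 in SF/SCL. SF/SCL replicates 1 and 2 were high, whereas replicate 3 was at the LF/LCL level. The log2 fold change was -0.87 ± 0.41 (95% interval -1.88 to 0.14; limma adjusted p = 0.487). DESeq2 gave an unadjusted p of 0.034 and an adjusted p of 0.325. RAB36, a GTPase of Golgi and late endosomes, was at 706 and 805.3 in LF/LCL and at 1100, 791.2 and 1246 in SF/SCL. Here SF/SCL replicate 2 lay between the LF/LCL libraries and replicates 1 and 3 were higher, with a log2 fold change of -0.45 ± 0.21 (limma adjusted p = 0.477).

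The exocytosis group holds the RAB3, RAB8, RAB26, RAB27 and RAB37 families that bring secretory vesicles to the plasma membrane. It had 14 genes, of which 11 were tested, with a median log2 fold change of -0.05. RAB3IP, also called Rabin8, is the exchange factor that activates RAB8 and takes part in building the primary cilium. Its abundance was 367.1 and 407.5 normalized reads in LF/LCL and was 505.3, 481.8 and 500.1 in SF/SCL. The 3 SF/SCL libraries were close to each other and all above both LF/LCL libraries. The log2 fold change was -0.36 ± 0.13 (95% interval -0.66 to -0.05), with an unadjusted p of 0.0287 and an adjusted p of 0.378 by limma. The summed ciliated-cell markers were lower in LF/LCL in the same libraries, and their part in the RAB3IP values was not tested. Leaving out each library in turn gave log2 fold changes from -0.43 to -0.28, with unadjusted limma p from 0.046 to 0.145.

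RAB8A, the target of RAB3IP, was at 1095 and 1388 in LF/LCL and at 1183, 1190 and 1117 in SF/SCL. The LF/LCL libraries were the lowest and the highest of the 5, with a log2 fold change of 0.08 ± 0.13 (interval -0.23 to 0.40). RAB8B had -0.19 ± 0.15, and RAB10, which acts in transport to the cell surface, had 0.03 ± 0.09 with an interval of -0.19 to 0.26. RAB13, a GTPase of tight junction assembly, had 0.05 ± 0.18, and RAB37, a granule RAB, had -0.37 ± 0.46, both with overlap.

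RAB26, a GTPase of secretory granule maturation in gland cells, was at 46.9 and 99.7 in LF/LCL and at 107.1, 122.8 and 146 in SF/SCL. No SF/SCL library was below an LF/LCL library, but the LF/LCL libraries differed from each other by more than LF/LCL replicate 2 differed from any SF/SCL library in normalized reads. The log2 fold change was -0.85 ± 0.38 (95% interval -1.78 to 0.07; limma adjusted p = 0.465). Without LF/LCL replicate 1 its size was at its smallest, -0.32, and without LF/LCL replicate 2 at its largest, -1.39.

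RAB3 and RAB27 GTPases, which dock granules for regulated release, did not separate the groups. RAB3D was at 415.2 and 313.6 normalized reads in LF/LCL and at 328.5, 265.8 and 333.8 in SF/SCL (0.23 ± 0.19). RAB3A was at 103.2 and 70.7 in LF/LCL and at 68.6, 76.9 and 107.3 in SF/SCL (0.04 ± 0.33). Both overlapped, and the wide interval of RAB3A (-0.76 to 0.85) leaves changes of either sign possible. RAB27B was at 185.3 and 224.6 in LF/LCL and at 287, 184.2 and 179.2 in SF/SCL (-0.05 ± 0.27), with 1 SF/SCL library above and 2 below the LF/LCL values. RAB27A was at 9.38 and 30 in LF/LCL and at 28.1, 14.8 and 17.2 in SF/SCL. It was counted from 101 reads in all, the LF/LCL libraries were the lowest and the highest of the 5, and the log2 fold change of -0.18 ± 0.64 had an interval of -1.73 to 1.38. RAB3B had 2 reads over the 5 libraries, both in LF/LCL replicate 1, and was not tested. A count of 0 in the other libraries allows up to 3 reads each, for counting error only.

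**Figure D3:**
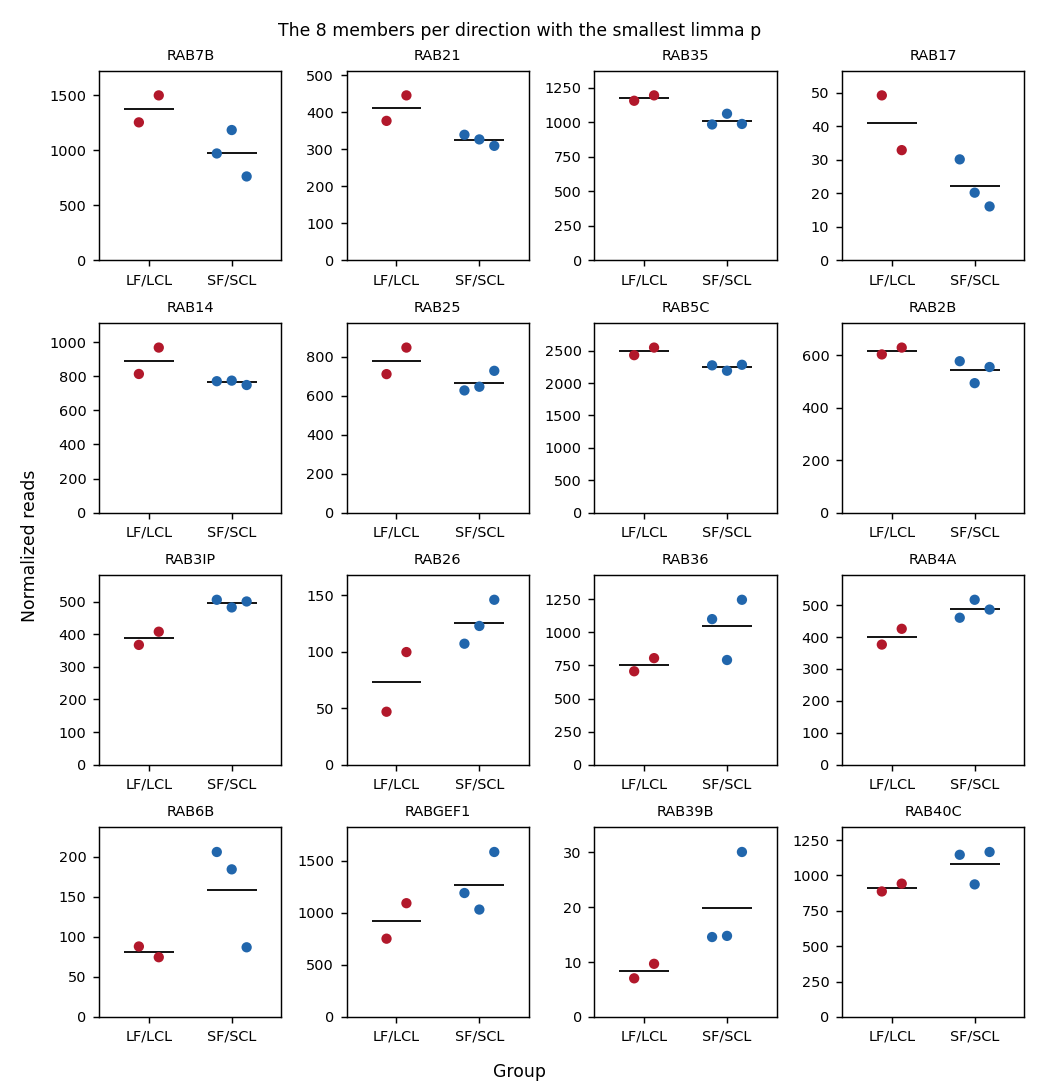
Normalized reads (vertical axes, from 0) of the 16 tested genes with the smallest limma p, 8 in each direction, in LF/LCL and SF/SCL. Each point is a library and each line a group mean. The groups overlap for RAB36, RAB6B, RABGEF1, RAB40C and RAB25. They do not overlap for the other genes shown, which are RAB3IP, RAB26, RAB4A, RAB39B, RAB7B, RAB21, RAB35, RAB17, RAB14, RAB5C and RAB2B.

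Genes of recycling endosomes and of transport to the cilium numbered 17, all tested, with a median log2 fold change of 0.07. They held 7 genes without overlap (41.2%, against 30.1% of all genes tested), 5 higher and 2 lower in LF/LCL. RAB35, which returns cargo from endosomes to the plasma membrane, was at 1156 and 1195 normalized reads in LF/LCL and at 984.6, 1062 and 988.4 in SF/SCL. The LF/LCL libraries were close together and above all of SF/SCL, and the log2 fold change was small, 0.22 ± 0.10 (95% interval -0.02 to 0.46; limma adjusted p = 0.474). RAB14, which acts between Golgi and endosomes, was at 813.9 and 968.9 in LF/LCL and at 771.5, 774.8 and 749.1 in SF/SCL (0.21 ± 0.12, limma adjusted p = 0.550). Its groups did not overlap either, but the value was 0.34 without LF/LCL replicate 1 and 0.09 without LF/LCL replicate 2.

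RAB17 and RAB25 are RABs of epithelial cells that act in recycling and transcytosis at the apical side. RAB17 was at 49.3 and 32.9 in LF/LCL and at 30.2, 20.2 and 16.1 in SF/SCL. Both LF/LCL libraries were above SF/SCL, although LF/LCL replicate 2 and SF/SCL replicate 1 were near each other. It had the highest log2 fold change of the 66 genes, 0.88 ± 0.46, with a wide interval (-0.24 to 2.00; limma adjusted p = 0.525) and 146 reads in all. RAB25 was at 710.7 and 846.9 in LF/LCL and at 626.9, 645.8 and 727.6 in SF/SCL (0.22 ± 0.14, limma adjusted p = 0.585). SF/SCL replicate 3 lay between the LF/LCL libraries, and the value was 0.35 without LF/LCL replicate 1 and 0.09 without LF/LCL replicate 2.

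RAB11A, a central GTPase of the recycling endosome, was at 1498 and 1521 in LF/LCL and at 1541, 1396 and 1376 in SF/SCL. The groups overlapped, with a log2 fold change of 0.07 ± 0.10 and an interval of -0.17 to 0.32. Its paralog RAB11B was at 2323 and 2315 in LF/LCL and at 1989, 2301 and 2000 in SF/SCL (0.15 ± 0.11), without overlap, but SF/SCL replicate 2 was close to LF/LCL. ARF6, which acts at the plasma membrane, was at 1128 and 1252 in LF/LCL and at 1040, 1082 and 1112 in SF/SCL (0.14 ± 0.10), also without overlap.

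The RAB11FIP proteins link RAB11 to motors and tethers. RAB11FIP1 had a log2 fold change of -0.12 ± 0.16, RAB11FIP2 of -0.17 ± 0.14, RAB11FIP3 of -0.30 ± 0.19, RAB11FIP4 of -0.32 ± 0.24 and RAB11FIP5 of 0.16 ± 0.15. All 5 overlapped between groups, and their smallest limma adjusted p was 0.596. RAB11FIP3 was at 550 and 443.3 normalized reads in LF/LCL and at 623.8, 504.4 and 715.8 in SF/SCL. RAB11FIP4 was at 146.6 and 203.3 in LF/LCL and at 250.6, 220.7 and 182.4 in SF/SCL. For each, SF/SCL had a library between the LF/LCL values.

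RAB4A, the GTPase of fast recycling from early endosomes, was at 376.5 and 425.9 in LF/LCL and at 460.6, 516.8 and 486.2 in SF/SCL. Both LF/LCL libraries were below SF/SCL, and the log2 fold change was -0.28 ± 0.13 (95% interval -0.61 to 0.04; limma adjusted p = 0.484). RAB28, a ciliary RAB, was the other gene of the group without overlap and lower in LF/LCL, at 1023 and 953.4 against 1138, 1181 and 1028 (-0.17 ± 0.11). LF/LCL replicate 1 and SF/SCL replicate 3 nearly touched. RAB23 and RAB34, which also act in ciliary signalling or cilium formation, overlapped between groups, with 0.19 ± 0.23 and -0.15 ± 0.16.

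Early endosome genes numbered 10, all tested, with a median log2 fold change of 0.03. RAB5A, RAB5B and RAB5C direct fusion of endocytic vesicles with early endosomes. RAB5C was at 2432 and 2550 normalized reads in LF/LCL and at 2275, 2192 and 2284 in SF/SCL. Both LF/LCL libraries were above SF/SCL by a small margin (0.15 ± 0.09; 95% interval -0.08 to 0.37; limma adjusted p = 0.593). RAB5A was at 865.5 and 892.4 in LF/LCL and at 822.4, 922.5 and 887.5 in SF/SCL. Its groups overlapped, and the interval of the change was -0.26 to 0.27 around a value of 0.0039.

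RAB21, which acts in endocytosis of integrins, was at 376.5 and 445.2 in LF/LCL and at 338.9, 326.4 and 309.1 in SF/SCL. All SF/SCL libraries were below both LF/LCL libraries, with a log2 fold change of 0.33 ± 0.15 (95% interval -0.02 to 0.69; limma adjusted p = 0.462). RABGEF1, also called Rabex-5, is an exchange factor for RAB5. It was at 750.6 and 1091 in LF/LCL and at 1188, 1030 and 1582 in SF/SCL. SF/SCL replicate 2 lay below LF/LCL replicate 2, so that the groups overlapped (-0.46 ± 0.24, limma adjusted p = 0.518). The value was -0.19 without LF/LCL replicate 1, -0.73 without LF/LCL replicate 2 and -0.29 without SF/SCL replicate 3. The RAB5 partners RABEP1 and RABEP2 had 0.06 ± 0.09 and -0.01 ± 0.15. RABEP1 did not overlap between groups, at 1482 and 1448 in LF/LCL and at 1374, 1402 and 1439 in SF/SCL, a case in which groups are apart although the change is small. RAB5B, RAB22A and RAB31 overlapped, with 0.07 ± 0.15, -0.01 ± 0.16 and 0.22 ± 0.34. RAB20, an endosomal and phagosomal RAB, was at 30.5 and 62.9 in LF/LCL and at 81.1, 45.9 and 99.8 in SF/SCL, with overlap and a log2 fold change of -0.70 ± 0.49.

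Late endosome and lysosome genes numbered 11, of which 9 were tested, with a median log2 fold change of -0.01. RAB7B, a GTPase of transport between late endosomes, lysosomes and the trans-Golgi network, was at 1255 and 1500 normalized reads in LF/LCL and at 972.1, 1185 and 763 in SF/SCL. Each LF/LCL library was above SF/SCL, and SF/SCL replicates 2 and 3 differed from each other by more than SF/SCL replicate 2 differed from either LF/LCL library. The log2 fold change was 0.52 ± 0.20 (95% interval 0.03 to 1.01), with an unadjusted p of 0.0415 and an adjusted p of 0.418 by limma. Leaving out each library in turn gave 0.35 to 0.67, with unadjusted limma p from 0.010 to 0.200. Summed smooth muscle, proliferation, epithelial, and nerve and glia markers were also higher in both LF/LCL libraries than in SF/SCL. The nerve and glia sum was mainly that of 1 gene, and 5 of 9 epithelial markers were higher. Summed stromal and immune markers overlapped between groups, although 8 of 9 stromal and 10 of 12 immune markers were higher in LF/LCL. Of the 12 immune markers, 7 were higher and 1 was lower without overlap, where the background was 15% and 15.1%. The part of these markers in the RAB7B values was not tested.

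RAB7A, the general GTPase of late endosome maturation, was at 2174 and 2294 in LF/LCL and at 2068, 2134 and 2043 in SF/SCL. It too did not overlap between groups, but its log2 fold change was 0.10 ± 0.09 with an interval of -0.12 to 0.33. RAB39B, a RAB best known from neurons, was at 7.04 and 9.68 in LF/LCL and at 14.6, 14.8 and 30 in SF/SCL. It was the gene with the lowest log2 fold change, -1.09 ± 0.57 (95% interval -2.47 to 0.29; limma adjusted p = 0.522), and rested on 77 reads in all, the fewest of the 66 genes. SF/SCL replicate 3 was about as far above the other SF/SCL libraries as those were above 0. RAB9A, RAB12, RAB24, RAB32 and RAB7L1 overlapped between groups, with log2 fold changes of -0.07, -0.01, -0.12, 0.10 and -0.17.

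RAB40C, an adaptor of a ubiquitin ligase that falls outside these groups, was at 886.6 and 941.8 in LF/LCL and at 1146, 936.5 and 1165 in SF/SCL (-0.24 ± 0.13, limma adjusted p = 0.554). SF/SCL replicate 2 was at the LF/LCL level.

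In some genes the spread within LF/LCL exceeded any difference between groups. Chosen after their values were seen, RAB38 and RAB15 show this best. RAB38, which serves lysosome-related organelles such as melanosomes, was at 24.6 and 150 normalized reads in LF/LCL and at 47.8, 42.7 and 37.6 in SF/SCL. RAB15, an endosomal RAB, was at 246.3 and 67.8 in LF/LCL and at 137.2, 136 and 174.9 in SF/SCL. In both genes the LF/LCL libraries were the lowest and the highest of the 5. Their log2 fold changes were 0.52 ± 0.74 and -0.20 ± 0.54, and each changed sign without LF/LCL replicate 2, to -0.76 for RAB38 and to 0.73 for RAB15. RAB15 was also above 0, at 0.07, with edgeR and DESeq2.

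The 7 genes at or under the filter on mean abundance were RAB3B, RAB3C, RAB9B, RAB39, RAB40B, RAB42 and RAB44. They had between 1 read (RAB44) and 26 reads (RAB40B) over the 5 libraries. RAB9B had 9.68 normalized reads in LF/LCL replicate 2 and between 1.04 and 1.55 in the other libraries. RAB3C, a neuronal RAB3, was at 7.28 in SF/SCL replicate 1 and between 0 and 2.90 elsewhere. These genes were not tested, and at so few reads no difference can be read from them.

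Genes that act on these GTPases without belonging to them were taken from lists of GEFs, GAPs, prenylation and chaperone proteins, effectors, coat subunits, the exocyst tether and ARF-like GTPases. Of 234 listed genes, 220 were tested. Limma called 0 of them and passed 23 (10.5%) at an unadjusted p under 0.05, against 11.5% of all genes, with 9 higher and 14 lower in LF/LCL. The edgeR test also called 0. DESeq2 called 6 of the 220 (2.73%), against 2.89% of all genes, so these lists were called about as often as genes in general. Of these, 5 are described because DESeq2 called them, and limma and edgeR did not. Their DESeq2 adjusted p was 3.60e-07 for UNC13D, 5.09e-06 for TBC1D4, 0.000572 for RPH3AL, 0.00125 for SEC16B and 0.0386 for PSD4. Summed ciliated markers were lower in both LF/LCL libraries than in SF/SCL. Summed smooth muscle, proliferation, epithelial, and nerve and glia markers were higher. The part of these markers in these 5 genes was not tested.

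**Figure D4:**
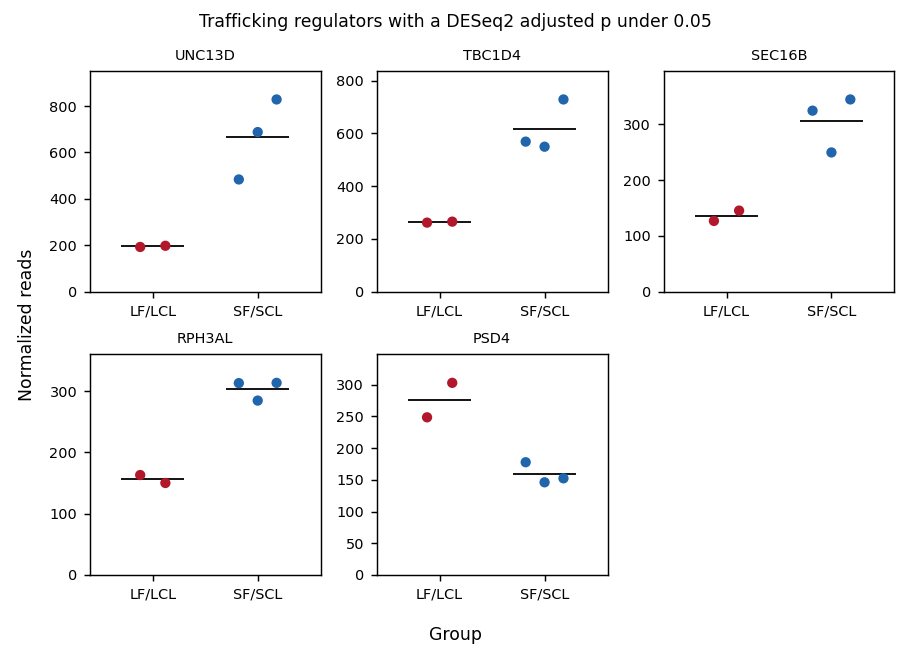
Normalized reads (vertical axes, from 0) of 5 trafficking regulators with a DESeq2 adjusted p under 0.05 in LF/LCL and SF/SCL, where each point is a library and each line a group mean. UNC13D, TBC1D4, SEC16B and RPH3AL are lower, and PSD4 is higher, in both LF/LCL libraries than in all 3 SF/SCL libraries.

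Of these 5, 2 are effectors of RAB27 or RAB3 in granule exocytosis. UNC13D, also called Munc13-4, primes secretory granules with RAB27. It was at 192.3 and 197.5 normalized reads in LF/LCL and at 483.5, 687.8 and 828.5 in SF/SCL. Every SF/SCL library was above both LF/LCL libraries, with a log2 fold change of -1.73 ± 0.24 and a limma adjusted p of 0.178. RPH3AL, also called Noc2, is an effector of RAB3 and RAB27 in gland cells. It was at 163 and 150 in LF/LCL and at 312.9, 284.4 and 313.4 in SF/SCL, likewise apart, with -0.95 ± 0.16 and a limma adjusted p of 0.196. The GTPases that these effectors bind gave -0.18 ± 0.64 for RAB27A, -0.05 ± 0.27 for RAB27B, 0.23 ± 0.19 for RAB3D and 0.04 ± 0.33 for RAB3A. The other 34 tested effectors held 0 genes with an unadjusted limma p under 0.05.

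TBC1D4, also called AS160, is a GAP for RAB8, RAB10 and RAB14. It was at 261.5 and 265.2 in LF/LCL and at 568.7, 549.5 and 728.7 in SF/SCL. The LF/LCL libraries were nearly equal and the change was -1.21 ± 0.17 (limma adjusted p = 0.178). SEC16B, a scaffold of COPII exit sites on which SAR1 acts, was at 126.7 and 145.2 in LF/LCL and at 324.4, 249.5 and 344.5 in SF/SCL (-1.16 ± 0.21, limma adjusted p = 0.212). Of the 23 coat genes tested, SEC16B was the only one with an unadjusted limma p under 0.05, and 20 of the 23 had an interval within 1.5-fold.

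PSD4, a GEF for ARF6, was at 248.6 and 303 in LF/LCL and at 177.8, 146.1 and 152.4 in SF/SCL (0.79 ± 0.20, limma adjusted p = 0.298). It was higher in each LF/LCL library than in any SF/SCL library. In the list of ARF and SAR1 GEFs, 3 of 16 tested genes passed an unadjusted limma p under 0.05, all higher in LF/LCL, where the background was 5.64%. ARF GAPs gave 2 of 23, both lower, where it was 5.86% (GIT1 at -0.32 ± 0.10 and AGAP3 at -0.41 ± 0.15). These are shares of 18.75% for the GEFs and 8.7% for the GAPs, against 11.5% of all genes. As whole lists, 12 of the 16 GEFs (median 0.16) and 13 of the 23 GAPs (median 0.05) were above 0. The difference between these lists was not tested.

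At that level, passed by 11.5% of all genes, RAB GEFs gave 2 higher and 5 lower of 49 (14.3%), RAB GAPs 4 of 39 (10.3%) and the exocyst 1 of 9 (11.1%). RIN2, a GEF for RAB5, had 0.49 ± 0.13, and DENND2D had 0.75. DENND3, a GEF for RAB12, had -0.59 ± 0.15, and DENND2C had -0.91 ± 0.25. The RAB GAPs were TBC1D16 (0.39 ± 0.11) and TBC1D30 (0.33 ± 0.12), with higher values in LF/LCL, and TBC1D4 and SGSM1 (-0.60 ± 0.16), with lower values. The exocyst gene was EXOC5 (-0.26 ± 0.09), and the 7 chaperone and prenylation genes gave 0. No adjusted limma p among the genes in this paragraph was under 0.05.

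**Figure D5:**
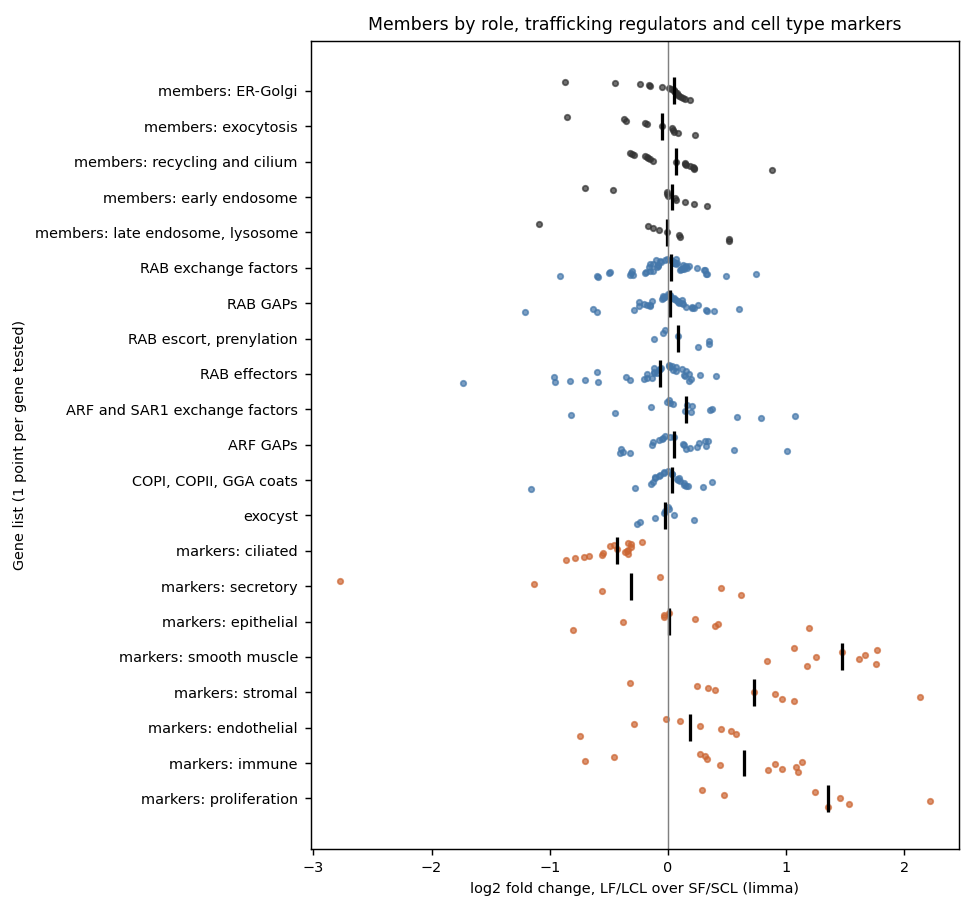
Limma log2 fold change (LF/LCL over SF/SCL, horizontal axis) of tested genes, with 1 point for each gene and a line at each median. Shown are the GTPase groups without RAB40C, 8 regulator lists and 8 marker lists. The marker lists are ciliated, secretory, epithelial, smooth muscle, stromal, endothelial, immune and proliferation. The GTPase groups centre near 0, whereas ciliated markers lie below 0 and smooth muscle markers above it.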

How the data were processed

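Total RNA of full-thickness ampulla tissue from 5 cows (LF/LCL, n = 2 and SF/SCL, n = 3) was sequenced by the authors as polyA libraries with paired reads. A further LF/LCL library was discarded by the study for low quality. Per the methods and the submitters' processing notes, reads were trimmed with seqyClean, aligned with TopHat2 2.0.8 and Bowtie2 2.1.0 to the masked UMD 3.1 assembly of Bos taurus, and counted per Ensembl gene with HTSeq 0.5.4p2. Only uniquely mapped reads were counted, so that close paralogs may split or lose reads. Use of strand in counting was not given in the sources used here, so that overlapping and antisense genes are uncertain. The deposited values are a normalized signal, the read count divided by a DESeq size factor for each library, and 100% of them came out as whole reads in each library (tolerance 0.05 reads).

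The test was limma 3.58.1 (lmFit, then eBayes with trend and robust) on log2(value + 1) for genes with a mean over 5, two-sided, with Benjamini-Hochberg adjustment over 15815 genes and a threshold of 0.05. The pseudocount understates changes of low genes. Alternatives were the edgeR 4.0.16 quasi-likelihood test and DESeq2 1.42.0 on recovered reads, other pseudocounts, filters and scalings, and leaving out each library. The scripts were tested on simulated data. No batch was given. Each library is a different cow, and the totals of 13418278 to 19592174 reads limit precision for genes with few reads.

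The genes and lists were chosen with earlier results of these data known. Named genes were those called by any tool and the 8 in each direction with the smallest limma p. A list of central GTPases and partners was also named whatever their values, as were genes under the filter. From the regulator lists, genes called by DESeq2 and some of those with the smallest p were named. Not every regulator list has genes named in both directions. Gene lengths were not used, so levels are not compared between genes. The counts of trafficking regulators include 1 gene called by DESeq2 that is not reported here.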

Additional observations from a re-analysis of the deposited data

How the results depend on the processing

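The count of called GTPases and partners was 0 in every alternative run, also at a threshold of 0.1. For all genes tested it was 0 except with DESeq2, which called 457, and for the trafficking regulators 0 except with DESeq2, which called 6. Leaving out each library gave 0 to 3 GTPases and partners with an unadjusted p under 0.05, with 0 when SF/SCL replicate 1 was left out and 1 when SF/SCL replicate 3 was left out. RAB3IP then had an unadjusted limma p of 0.046 to 0.145 and RAB7B of 0.010 to 0.200. Their directions held in each of these fits. With limma without trend and robust, RAB7B had an unadjusted p of 0.081, whereas RAB39B (0.039) and RAB17 (0.0495) passed 0.05.

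Of the 66 tested genes, 41 kept their direction in all 14 alternatives, among them the 16 genes with the smallest p in their direction. The other 25 changed sign when a library was left out, and RAB15 also with the edgeR test (0.069, or 0.068 with DESeq2 size factors) and DESeq2 (0.070). Their log2 fold changes on leaving out each library were -0.350 to 0.056 for RAB34, -0.33 to 0.0036 for RAB19, -0.970 to 0.229 for RAB37, -0.764 to 1.795 for RAB38, -0.086 to 0.255 for RAB8A, -0.085 to 0.526 for RAB31, -0.374 to 0.130 for RAB24, -0.013 to 0.133 for SAR1A, -0.0061 to 0.13 for RAB18, -0.101 to 0.237 for RAB5B, -0.180 to 0.040 for RAB9A, -1.119 to 0.727 for RAB15 and -0.015 to 0.083 for RAB10. They were -0.131 to 0.239 for RAB13, -0.303 to 0.473 for RAB30, -0.965 to 0.613 for RAB27A, -0.284 to 0.478 for RAB32, -0.192 to 0.423 for RAB33A, -0.191 to 0.166 for RAB27B, -0.016 to 0.044 for ARF4, -0.225 to 0.315 for RAB3A, -0.117 to 0.072 for RAB22A, -0.125 to 0.111 for RAB12, -0.081 to 0.123 for RABEP2 and -0.042 to 0.041 for RAB5A. In 52 of the 66 genes leaving out some library changed the sign or moved the log2 fold change by over 1.5 times. RAB21 then went to 0.213 without LF/LCL replicate 2, and RAB2B to 0.122 without SF/SCL replicate 2. The cause was not tested. No paired analysis was possible because each library came from a different cow and the replicate numbers do not link cows of the groups.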
